A study of Saccharomyces cerevisiae with 8 samples.

Results

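The comparison described here is CRN/PPN2 vs. CRN in YPD, that is, a strain of Saccharomyces cerevisiae that overexpresses the polyphosphatase Ppn2 against its parent, both in rich medium without alkali. It rests on 4 of the 8 libraries of the study, chosen by strain and medium: CRN/PPN2 replicates 1 and 2 and CRN replicates 1 and 2. The other 4 libraries come from the same strains grown with 20 mM KOH and are not compared here. They enter the filter on low counts, the replicate block and the shared estimate of the spread between replicates. Both strains are MATa, with mutant ade2, his3 and ura3 alleles and ppn1{delta}::CgTRP1. PPN1, which encodes the polyphosphatase Ppn1, is thus deleted on both sides of the comparison. CRN/PPN2 also carries PPN2 of S. cerevisiae on the plasmid pMB1, a centromeric vector derived from pRS316, in which the constitutive TDH3 promoter drives the gene and a PGK terminator ends it. The parent is described without an empty plasmid, so the presence of the plasmid with its marker URA3 and the overexpression of PPN2 cannot be told apart. The number of transformed clones is not given in the sources used here. Cells of both strains grew for 16 h in medium with glucose, peptone and yeast extract, were frozen, were broken in a French press and were suspended in Trizol LS, and libraries were made from poly(A) RNA with a directional kit.

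Inorganic polyphosphate is a linear chain of phosphate residues that yeast stores mainly in the vacuole. The vacuolar transporter chaperone (VTC) complex makes the chain, and polyphosphatases such as Ppn1, Ppn2 and Ppx1 cut it and release shorter chains or phosphate. Phosphate supply is read by the PHO pathway: when phosphate is short, the inhibitor Pho81 stops the kinase Pho85 with its cyclin Pho80, the transcription factor Pho4 stays in the nucleus, and genes for phosphate transporters, secreted phosphatases and the VTC complex are transcribed. When phosphate is plentiful, Pho4 is phosphorylated and these genes are kept low.

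The 4 libraries held 4756671 and 5004823 counts (CRN/PPN2) and 4445620 and 4768365 counts (CRN), so a single count was worth 0.2 to 0.225 CPM (counts scaled to a common library size with TMM factors). The standard deviation between the replicates of a group was 0.214 in CRN/PPN2 and 0.186 in CRN on the log2 scale. The design text calls the replicates independent biological replicates, and the methods state that replicate 1 and replicate 2 of all groups were separate batches of preparation and sequencing, which the fit holds as a block. Of the genes in the strain labels, PPN1 had 0 counts in all 4 libraries (a count of 0 allows up to 3). STE2, the pheromone receptor gene of MATa cells, had 668 and 655 CPM in CRN/PPN2 and 743 and 757 CPM in CRN, whereas the alpha-factor gene of the opposite mating type stayed under 1 CPM in each of the 4. The mutated marker genes ADE2 (adjusted p = 0.137) and HIS3 (0.294), and TRP1 (0.294), were not called between the strains.

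Of 5430 genes tested, 353 were differentially expressed in CRN/PPN2 vs. CRN at an adjusted p under 0.05, which is 6.5% of them. 224 genes (4.13%) were higher and 129 (2.38%) were lower in CRN/PPN2. The median log2 fold change of all genes tested was 0.01, and the called genes had medians of 0.69 on the higher side and -0.62 on the lower side, so most differences were below a factor of 2. Among the called genes, 46 of the higher and 20 of the lower ones changed by at least 1 on the log2 scale. With the 4 YPD libraries alone, 364 genes (6.7%) were higher and 372 (6.85%) lower, and all 353 genes called with 8 libraries were called again in the same direction. Both fits take the fold change mainly from the same 4 libraries, so the shared direction is not separate evidence. The fit without the replicate block gave 88 higher and 44 lower genes. Leaving out 1 of the 4 YPD libraries, so that a group had a single library, gave 84 and 46 (without CRN replicate 1), 68 and 42 (without CRN replicate 2), 64 and 34 (without CRN/PPN2 replicate 1) and 92 and 43 (without CRN/PPN2 replicate 2) higher and lower genes.

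**Figure D1:**
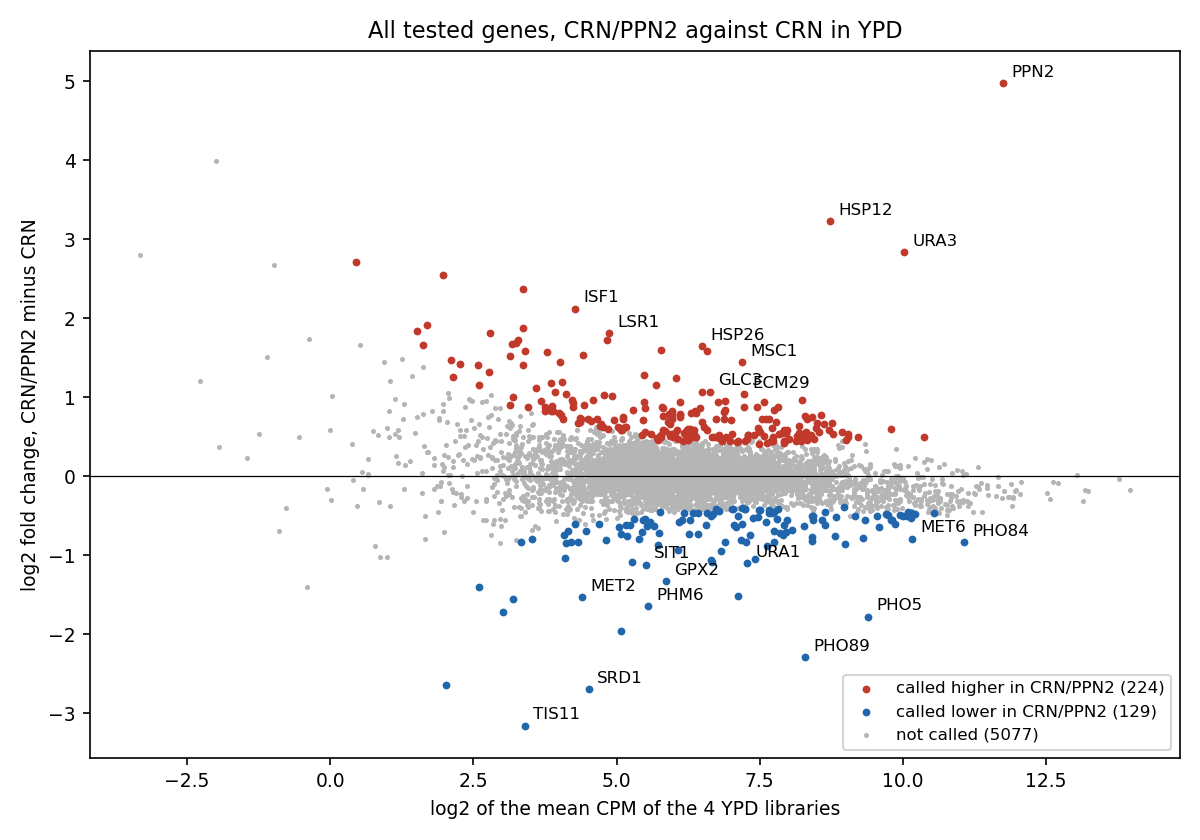
Each point is 1 of the 5430 genes tested, with the log2 of its mean CPM over the 4 YPD libraries on the x axis and its log2 fold change (CRN/PPN2 minus CRN) on the y axis. Red points are the 224 genes called higher and blue points the 129 called lower in CRN/PPN2, and PPN2, HSP12 and URA3 stand highest among the called genes, at 4.98, 3.23 and 2.84.

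The overexpressed gene separated the strains by more than any other called gene. PPN2 (YNL217W, chrXIV:240331-241311 on the plus strand of R64) had 6854 and 6468 CPM in CRN/PPN2, against 215 and 206 CPM in CRN. The log2 fold change of PPN2 reached 4.98 (SE 0.16, adjusted p = 2.98e-13). The reads of the plasmid copy and of the chromosomal copy are counted at the same gene and cannot be told apart. URA3 (YEL021W), the orotidine-phosphate decarboxylase gene of the ura3 strain and of the vector, had 1894 and 1730 CPM in CRN/PPN2 and 235 and 273 CPM in CRN (2.84 on the log2 scale, SE 0.14, adjusted p = 2.52e-10). TDH3 and PGK1, whose promoter and terminator are on the plasmid, were not called (-0.17 with adjusted p = 0.579 and -0.18 with adjusted p = 0.516). None of the other polyphosphate and inositol pyrophosphate enzymes tested was called. PPX1, the cytosolic exopolyphosphatase gene, had 185 and 157 CPM in CRN/PPN2 and 166 and 149 CPM in CRN (log2 fold change 0.12, adjusted p = 0.63). The inositol pyrophosphate kinases KCS1 (-0.13) and VIP1 (-0.16), the phosphatases DDP1 (0.04) and SIW14 (-0.04) and the pyrophosphatase IPP1 (-0.05) had log2 fold changes between -0.16 and 0.04, with adjusted p from 0.495 to 0.93.

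Genes of the PHO pathway were lower in CRN/PPN2. Of 20 phosphate-responsive genes tested, 15 were lower and 0 higher, with a median log2 fold change of -0.68, against 0.01 for all genes and a background of 2.38% called lower. The study names several of these genes from the same libraries, so their direction is not independent evidence. The sodium-phosphate symporter gene PHO89 (YBR296C) had 89.7 and 123 CPM in CRN/PPN2, against 498 and 537 CPM in CRN (log2 fold change -2.29, SE 0.14, adjusted p = 4.78e-09). The proton-phosphate symporter gene PHO84 had 1328 and 1778 CPM in CRN/PPN2, against 2692 and 2806 CPM in CRN (-0.84, SE 0.15, adjusted p = 0.00136). Both high-affinity transporter genes were thus lower in each CRN/PPN2 library than in each CRN library. They are called genes, and the share of all tested genes without overlap is not given. The glycerophosphoinositol permease gene GIT1 had 274 and 229 CPM in CRN/PPN2 and 450 and 408 CPM in CRN (-0.77, adjusted p = 0.00036). PHO86, whose product lets Pho84 leave the endoplasmic reticulum, had 132 and 127 CPM in CRN/PPN2 and 179 and 167 CPM in CRN (-0.41, adjusted p = 0.0374).

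The transporter genes outside the phosphate-responsive set behaved otherwise. The low-affinity plasma membrane transporters PHO87 (101 and 103 CPM in CRN/PPN2, 118 and 112 CPM in CRN) and PHO90 (71.5 and 82 CPM in CRN/PPN2, 72.7 and 80.8 CPM in CRN) were not called. The vacuolar transporter gene PHO91 had 66.6 and 108 CPM in CRN/PPN2 and 86.2 and 127 CPM in CRN, so that the replicates of each strain differed by more than the strains (adjusted p = 0.336). PIC2, a carrier of the inner mitochondrial membrane, was the only transporter gene of the list that rose, with 287 and 293 CPM in CRN/PPN2 and 188 and 200 CPM in CRN (log2 fold change 0.58, SE 0.12, adjusted p = 0.00471). MIR1, the main mitochondrial phosphate carrier, was not called (0.09, adjusted p = 0.732), nor were PHO88 (0.07, adjusted p = 0.827) and ERS1 (0.12, adjusted p = 0.729).

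Among 8 phosphatase genes tested, 4 (50%) fell and 0 rose, against 2.38% of all genes called lower. The major secreted acid phosphatase gene PHO5 had 291 and 315 CPM in CRN/PPN2 and 908 and 1178 CPM in CRN (log2 fold change -1.78, SE 0.13, adjusted p = 1.13e-07). Its relatives PHO11 (12.9 and 14.7 CPM in CRN/PPN2, 53 and 54.7 CPM in CRN) and PHO12 (72.1 and 71.8 CPM in CRN/PPN2, 214 and 200 CPM in CRN) had log2 fold changes of -1.96 and -1.52. PHO11 and PHO12 are nearly identical copies, so the split of reads between them is uncertain. PHO8, the vacuolar alkaline phosphatase gene, had 170 and 209 CPM in CRN/PPN2 and 288 and 331 CPM in CRN (-0.71, adjusted p = 0.000917). PHO3, the constitutive acid phosphatase gene beside PHO5, had 207 and 253 CPM in CRN/PPN2 and 196 and 225 CPM in CRN (0.13, adjusted p = 0.582). PHO13 (-0.05), PHM8 (0.28) and DIA3 (0.14) were not called (adjusted p from 0.26 to 0.877).

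All 5 genes of the VTC complex fell, against 2.38% of all genes called lower. They fell by less than PHO89 and the acid phosphatases, with a median log2 fold change of -0.61. VTC1, a membrane subunit, had 363 and 571 CPM in CRN/PPN2 and 681 and 912 CPM in CRN (-0.78, adjusted p = 0.00384). VTC4, the polymerase subunit, had 533 and 662 CPM in CRN/PPN2 and 886 and 979 CPM in CRN (-0.65, adjusted p = 0.0045). In neither gene did the strains overlap, but both are called genes, and the share of all tested genes without overlap is not given. The accessory subunits VTC3 (-0.61, adjusted p = 0.00582), VTC2 (-0.50, adjusted p = 0.0188) and VTC5 (-0.47, adjusted p = 0.0228) followed. None of the 5 was called without the replicate block, and leaving out 1 YPD library left 0 to 2 of them (0 without CRN/PPN2 replicate 1 and without CRN replicate 2, 1 without CRN replicate 1, 2 without CRN/PPN2 replicate 2).

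The regulators differed by role. SPL2, a small inhibitor of low-affinity phosphate uptake, had 121 and 101 CPM in CRN/PPN2 and 245 and 213 CPM in CRN (-1.05, SE 0.15, adjusted p = 0.000209). PHM6, a phosphate-responsive gene whose product has no assigned function, had 25.5 and 19.8 CPM in CRN/PPN2 and 71.4 and 70.4 CPM in CRN (-1.65, SE 0.17, adjusted p = 3.97e-06). The gene of the kinase inhibitor PHO81, itself a Pho4 target, fell by 0.43 on the log2 scale (adjusted p = 0.0307). The genes of the signalling core were not called: PHO4 (-0.32, adjusted p = 0.195), its partner PHO2 (0.03, adjusted p = 0.949), the cyclin PHO80 (-0.03, adjusted p = 0.945) and the kinase PHO85 (0.35, adjusted p = 0.103). PHM7, which the study names, had 5.52 and 9.22 CPM in CRN/PPN2 and 2.73 and 4.86 CPM in CRN (0.95, adjusted p = 0.0747). PHM7 was below 10 CPM in all 4 YPD libraries and passed the filter on low counts only through KOH libraries. The RNA-binding gene PHO92 had at most 2.86 CPM. Besides PHM8, 4 of the 20 phosphate-responsive genes were not called, namely GDE1 (-0.36), CTF19 (-0.40), GPP2 (-0.15) and KCS1 (-0.13). With no replicate block 9 of the 20 were called lower, and 7 (without CRN/PPN2 replicate 1) to 11 (without CRN/PPN2 replicate 2) were when 1 YPD library was left out. PHO89, PHO5, PHO11, PHO12, PHM6, SPL2 and GIT1 were called without any 1 of the 8 libraries.

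**Figure D2:**
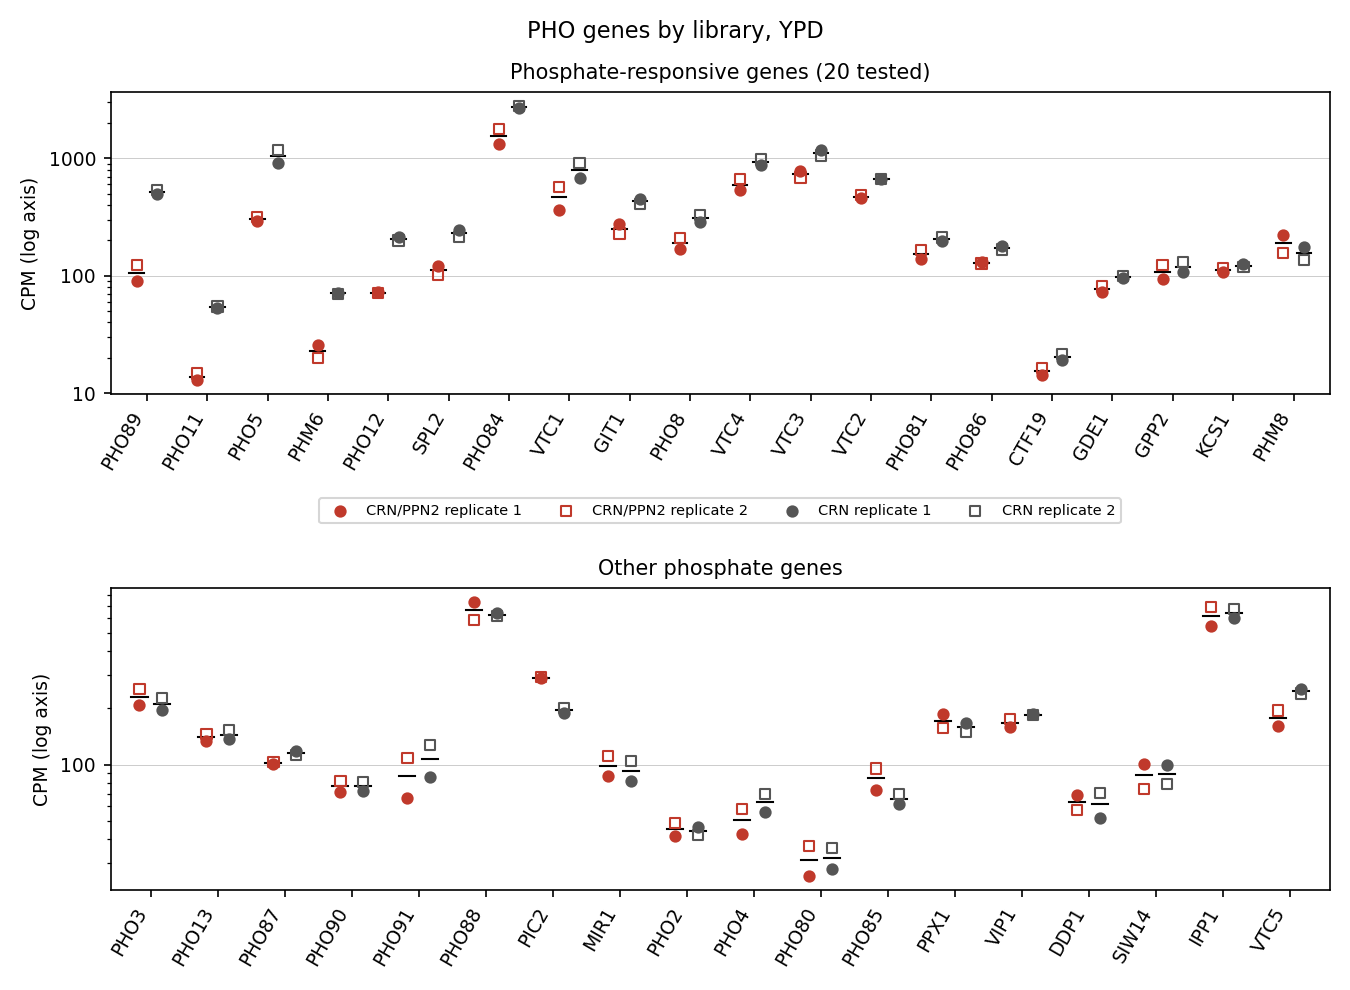
CPM (log axis) of the 20 phosphate-responsive genes, ordered by log2 fold change, and of other phosphate genes in each YPD library, with CRN/PPN2 in red on the left and CRN in gray on the right of each gene, circles for replicate 1, squares for replicate 2 and a bar at the mean. PHO89 sits at 89.7 and 123 CPM in CRN/PPN2, below 498 and 537 CPM in CRN, whereas PHO3, PHO90 and PHO80 overlap between the strains.

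Promoter sequences are shown for called genes whose window holds the motif of their regulator, so that the letters can be read beside the changes. The window runs from 250 bases before the gene start to 50 after it, on the strand of the gene in R64, and the start codon atg follows the first 250 bases. Capitals mark CACGTG, the core that Pho4 binds. SPL2 lies at chrVIII:375051-375350 (minus strand) with 3 matches, and VTC4 at chrX:413350-413649 (minus strand) with 2.
SPL2: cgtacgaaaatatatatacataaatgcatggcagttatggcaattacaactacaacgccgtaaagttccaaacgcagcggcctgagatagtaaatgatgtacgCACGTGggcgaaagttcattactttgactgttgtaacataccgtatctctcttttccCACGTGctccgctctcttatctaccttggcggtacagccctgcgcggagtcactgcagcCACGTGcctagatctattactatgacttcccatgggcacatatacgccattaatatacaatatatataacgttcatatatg
VTC4: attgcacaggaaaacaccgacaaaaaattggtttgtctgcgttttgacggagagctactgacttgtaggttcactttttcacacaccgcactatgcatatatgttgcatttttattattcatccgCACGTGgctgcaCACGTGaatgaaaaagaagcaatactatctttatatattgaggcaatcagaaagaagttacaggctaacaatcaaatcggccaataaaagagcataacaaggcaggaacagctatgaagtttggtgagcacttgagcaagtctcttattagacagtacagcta
CACGTG, searched on both strands (it reads the same on either), was present in 2.98% of the windows of all 5329 tested genes with a window, in 6.98% of those of genes called lower and in 0.463% of those of genes called higher. Of the 20 phosphate-responsive genes, 4 had it (PHO86, SPL2, VTC1 and VTC4), and all 4 were called lower with a median log2 fold change of -0.72. The 16 without it in this window had a median of -0.66 with 11 called lower. The variant CACGTT stood in 9.18% of all windows and in 8.53% of those of genes called lower.

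Genes of sulfate assimilation and methionine synthesis were lower in CRN/PPN2, as a group nearly as far as the phosphate-responsive genes. Of 29 tested, 17 (58.6%) were lower and 0 higher, against 2.38% of all genes called lower. The median log2 fold change of the 29 was -0.61. The sulfate permease genes SUL1 and SUL2 did not pass the filter on low counts, and the steps from sulfate to sulfide were covered almost in full. MET3, the ATP sulfurylase gene, had 44.3 and 47.7 CPM in CRN/PPN2 and 84.3 and 91.2 CPM in CRN (-0.93, SE 0.13, adjusted p = 0.000125). MET14, the adenylylsulfate kinase gene, had 70.3 and 59.5 CPM in CRN/PPN2 and 148 and 127 CPM in CRN (-1.09, SE 0.12, adjusted p = 1.12e-05). MET16, the gene of the next reductase, had 44.9 and 35.7 CPM in CRN/PPN2 and 63.6 and 68.7 CPM in CRN (-0.72, adjusted p = 0.00321). All of these libraries of CRN/PPN2 lay below all of CRN, but these are called genes, and the share of all tested genes without overlap is not given. The sulfite reductase subunits MET10 (61.3 and 67.9 CPM in CRN/PPN2, 126 and 143 CPM in CRN) and MET5 (140 and 138 CPM in CRN/PPN2, 249 and 262 CPM in CRN) had log2 fold changes of -1.06 and -0.88. MET1, needed for the siroheme of that enzyme, fell by 0.63 on the log2 scale (adjusted p = 0.0379), whereas MET8 of the same cofactor pathway had a log2 fold change of -0.01 (adjusted p = 0.988).

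The later steps moved in the same direction. MET2, the homoserine acetyltransferase gene, had 10.4 and 11.2 CPM in CRN/PPN2 and 32.5 and 30 CPM in CRN, the largest fall of the list (-1.53, SE 0.18, adjusted p = 2.66e-05). MET17, which joins sulfide to acetylhomoserine, had 365 and 359 CPM in CRN/PPN2 and 636 and 680 CPM in CRN (-0.86, adjusted p = 0.000421). MET6, the methionine synthase gene, had 768 and 921 CPM in CRN/PPN2 and 1415 and 1481 CPM in CRN (-0.79, adjusted p = 0.00102). These 3 genes make methionine from homoserine and sulfide. STR3, the cystathionine beta-lyase gene, fell by 1.09 on the log2 scale (adjusted p = 0.00021), and HOM3, the aspartate kinase gene, by 0.72 (adjusted p = 0.00321). The permease genes MUP1 (-0.75) and MMP1 (-0.83) and the methyltransferase MHT1 (-0.74) were also lower. So were the S-adenosylmethionine synthetases SAM1 (-0.52) and SAM2 (-0.55), which are close paralogs. Adjusted p of these genes ran from 0.000802 to 0.0339. Of the regulators, MET28 was lower (-0.61, adjusted p = 0.0486), and MET4 (-0.14), MET31 (0.06), MET32 (-0.39) and MET30 (-0.22) were not called. CYS3 (-0.38), CYS4 (-0.13) and STR2 (0.00), which lead from homocysteine to cysteine and back, were not called either. Of the 29, 10 were called lower with no replicate block, and 8 (without replicate 1 of either strain) to 10 were when 1 YPD library was left out. Cbf1, a regulator of these genes, binds the same CACGTG core as Pho4, which 9 of the 29 windows (31%) held. MET14 (chrXI:439336-439635, minus strand) had 1 match and MET10 (chrVI:213062-213361, plus strand) had 2, in capitals.
MET14: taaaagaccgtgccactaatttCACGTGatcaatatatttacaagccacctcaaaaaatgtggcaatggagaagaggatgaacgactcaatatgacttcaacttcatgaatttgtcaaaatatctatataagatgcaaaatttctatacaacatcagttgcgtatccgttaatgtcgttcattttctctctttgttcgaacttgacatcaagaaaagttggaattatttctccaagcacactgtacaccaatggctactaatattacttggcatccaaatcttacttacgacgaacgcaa
MET10: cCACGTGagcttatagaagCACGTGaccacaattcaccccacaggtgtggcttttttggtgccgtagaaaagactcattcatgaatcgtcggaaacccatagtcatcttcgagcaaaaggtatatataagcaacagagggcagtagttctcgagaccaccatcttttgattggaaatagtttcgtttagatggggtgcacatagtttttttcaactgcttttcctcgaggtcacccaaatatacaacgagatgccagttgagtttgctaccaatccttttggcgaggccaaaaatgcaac
The 9 genes with the motif had a median log2 fold change of -0.38 with 4 called lower, and the 20 without it a median of -0.68 with 13 called lower.

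Iron genes, many of them uptake genes under Aft1, the activator that works when iron is short, were lower in part. The list also holds AFT1, AFT2, GRX3, GRX4, CCC1 and YAP5, which are not uptake genes. Of 31 tested, 10 (32.3%) were lower and 1 (3.23%) higher, against 2.38% and 4.13% of all genes. The median log2 fold change of the list was -0.38. TIS11 (YLR136C), which encodes a protein that binds and destabilizes mRNAs during iron shortage, had 2.45 and 1.77 CPM in CRN/PPN2 and 17.5 and 20.5 CPM in CRN (-3.16, SE 0.28, adjusted p = 1.01e-06). It was the largest fall of all called genes, although the CRN/PPN2 values rest on few counts. The siderophore transporter genes SIT1 (29.4 and 28.1 CPM in CRN/PPN2, 61.6 and 63.1 CPM in CRN), ENB1 (89.7 and 81.6 CPM in CRN/PPN2, 153 and 153 CPM in CRN), ARN2 (41.5 and 33.4 CPM in CRN/PPN2, 67.1 and 70 CPM in CRN) and ARN1 (17.4 and 23.3 CPM in CRN/PPN2, 30 and 41.7 CPM in CRN) were all lower, with log2 fold changes of -1.12, -0.83, -0.87 and -0.81. All 4 members of this transporter family fell. The high-affinity ferrous uptake pair, the oxidase FET3 (89.1 and 130 CPM in CRN/PPN2, 173 and 218 CPM in CRN) and the permease FTR1 (102 and 109 CPM in CRN/PPN2, 147 and 183 CPM in CRN), had log2 fold changes of -0.84 and -0.64 (adjusted p = 0.000318 and 0.00174). The reductases FRE1 (-0.52, adjusted p = 0.0134) and FRE4 (-1.41, adjusted p = 0.00421) and the vacuolar exporter SMF3 (-0.62, adjusted p = 0.0115) completed the lower genes.

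Other members did not follow. HMX1, the heme oxygenase gene, was the 1 that rose (0.51, adjusted p = 0.0354). It had 59.5 and 84.8 CPM in CRN/PPN2 and 43.6 and 57.6 CPM in CRN. This single call was 3.23% of the list, below the 4.13% of all genes called higher. The cell wall mannoprotein genes FIT2 (4.9 and 6.28 CPM in CRN/PPN2, 9.09 and 11 CPM in CRN) and FIT3 (7.76 and 11.6 CPM in CRN/PPN2, 13.9 and 16.6 CPM in CRN) had adjusted p of 0.119 and 0.104. The activator genes AFT1 (-0.36, adjusted p = 0.243) and AFT2 (0.09, adjusted p = 0.774), the low-affinity transporter FET4 (-0.16, adjusted p = 0.488) and the vacuolar importer CCC1 (0.07, adjusted p = 0.818) were not called. FIT1 and FRE5 did not pass the filter, and FRE4 passed it only through KOH libraries. With no replicate block 7 of the 31 were called lower, and 4 (without CRN/PPN2 replicate 2) to 8 (without CRN replicate 1) were when 1 YPD library was left out. The Aft1 core TGCACCC, searched on both strands, stood in 1.18% of all windows, in 4.65% of those of genes called lower and in none of the 216 of genes called higher. It was present in 11 of the 31 iron genes (35.5%), whose median log2 fold change was -0.64 with 4 called lower. The 20 without it had a median of -0.04 with 6 called lower and 1 higher. They include AFT1, AFT2, GRX3 (0.03), GRX4 (-0.04), CCC1 and YAP5 (0.17), which are not uptake genes. They also include the lower uptake genes FET3, ARN1 and ARN2, so the medians depend on the make-up of the list. TIS11 (chrXII:416609-416908, minus strand) had 2 matches and SIT1 (chrV:27407-27706, plus strand) 1, in capitals, those reading GGGTGCA being on the other strand.
TIS11: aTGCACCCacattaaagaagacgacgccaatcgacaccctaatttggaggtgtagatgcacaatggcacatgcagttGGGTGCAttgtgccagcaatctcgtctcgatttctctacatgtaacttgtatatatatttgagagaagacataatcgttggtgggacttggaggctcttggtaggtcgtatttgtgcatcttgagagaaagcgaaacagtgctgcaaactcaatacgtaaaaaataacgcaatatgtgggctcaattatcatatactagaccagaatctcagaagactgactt
SIT1: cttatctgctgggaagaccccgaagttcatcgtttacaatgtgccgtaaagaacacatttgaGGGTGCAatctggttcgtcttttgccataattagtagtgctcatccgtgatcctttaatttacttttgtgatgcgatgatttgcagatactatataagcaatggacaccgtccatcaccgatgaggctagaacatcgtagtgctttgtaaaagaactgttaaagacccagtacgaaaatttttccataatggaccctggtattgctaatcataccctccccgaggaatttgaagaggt

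**Figure D3:**
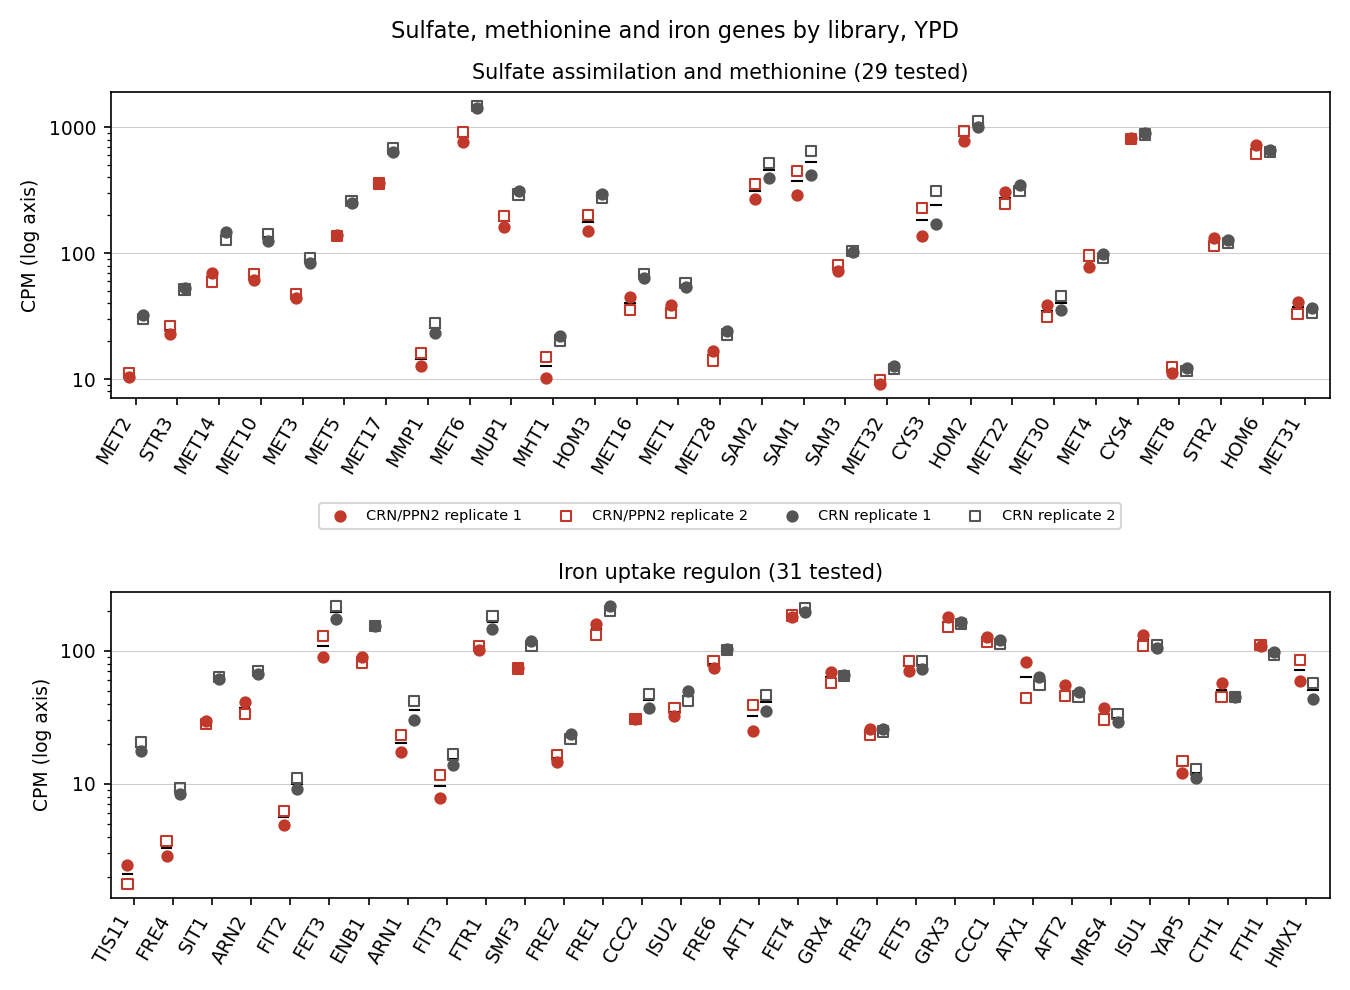
CPM (log axis) of the 29 sulfate and methionine genes and the 31 iron genes in each YPD library, ordered by log2 fold change, with CRN/PPN2 in red on the left and CRN in gray on the right of each gene, circles for replicate 1, squares for replicate 2 and a bar at the mean. MET2 lies at 10.4 and 11.2 CPM in CRN/PPN2, below 32.5 and 30 CPM in CRN, and TIS11 at 2.45 and 1.77 CPM, below 17.5 and 20.5 CPM.

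Genes under Msn2 and Msn4, the activators of the general stress response, were higher in CRN/PPN2. Of 36 tested, 26 were higher and 0 lower, with a median log2 fold change of 0.85, against a background of 4.13% called higher, and all 36 had log2 fold changes above 0. This list, like the others, was chosen with earlier results of these data known, so its count is not independent evidence. HSP12 (YFL014W), a membrane-protecting heat shock gene, had 874 and 663 CPM in CRN/PPN2 and 89.3 and 73.5 CPM in CRN (3.23, SE 0.16, adjusted p = 2.52e-10). The small heat shock gene HSP26 had 120 and 155 CPM in CRN/PPN2 and 35.9 and 52.1 CPM in CRN (1.65, SE 0.15, adjusted p = 1.27e-06), and the cytosolic catalase gene CTT1 had 71.3 and 94 CPM in CRN/PPN2 and 29.6 and 24.9 CPM in CRN (1.6, SE 0.17, adjusted p = 8.01e-06). In none of these genes did the strains overlap, but they are called genes, and the share of all tested genes without overlap is not given. MSC1 (212 and 216 CPM in CRN/PPN2, 85.2 and 72.4 CPM in CRN) and DCS2 (91.7 and 92.2 CPM in CRN/PPN2, 37.1 and 40.6 CPM in CRN) had log2 fold changes of 1.44 and 1.24. DDR2, a small stress gene, had 15.9 and 18.8 CPM in CRN/PPN2 and 2.05 and 4.64 CPM in CRN (2.37, SE 0.27, adjusted p = 2.02e-05). OM45 (1.06), a protein of the outer mitochondrial membrane, the glutamate decarboxylase GAD1 (0.94) and the repressor XBP1 (1.32) were also higher. The change was uneven within the group. HSP104, the disaggregase gene, had 544 and 567 CPM in CRN/PPN2 and 431 and 426 CPM in CRN and was not called (0.37, adjusted p = 0.0879). The trehalose genes TPS1 (0.31), TPS2 (0.07) and TSL1 (0.19) and HOR7 (0.09) were not called either (adjusted p from 0.168 to 0.798). Of the 36, 20 were called with no replicate block, and 15 (without CRN replicate 2) to 21 (without CRN replicate 1) were when 1 YPD library was left out.

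The stress response element AGGGG, the core that Msn2 and Msn4 bind, was present on either strand in 26 of the 36 windows (72.2%), in 41.7% of those of genes called higher, in 16.3% of those of genes called lower and in 21.7% of all windows. The 26 genes with it had a median log2 fold change of 0.82 and the 10 without it of 0.9. HSP12 (chrVI:107006-107305, plus strand) is shown as the gene with the largest rise besides PPN2. It had 2 matches, which read CCCCT on this strand and are in capitals.
HSP12: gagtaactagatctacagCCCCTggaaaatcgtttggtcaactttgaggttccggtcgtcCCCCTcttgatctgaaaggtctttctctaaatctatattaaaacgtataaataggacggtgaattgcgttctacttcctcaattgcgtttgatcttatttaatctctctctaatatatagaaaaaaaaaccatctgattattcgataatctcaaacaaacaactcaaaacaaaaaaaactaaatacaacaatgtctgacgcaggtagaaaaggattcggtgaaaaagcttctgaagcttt

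Carbon storage and alternative carbon genes rose in part. Of 12 glycogen genes tested, 5 were higher and 0 lower (median 0.47). The branching enzyme gene GLC3 had 128 and 141 CPM in CRN/PPN2 and 67.1 and 60.9 CPM in CRN (1.07, SE 0.13, adjusted p = 2.66e-05). GPH1, the glycogen phosphorylase gene, which also stands in the Msn2/4 list, had 382 and 412 CPM in CRN/PPN2 and 212 and 195 CPM in CRN (0.96, adjusted p = 0.00119). The phosphatase regulators GIP2 (1.19) and GAC1 (1.07) and the debranching enzyme GDB1 (0.60) were higher as well, so genes of both synthesis and breakdown were among the 5. The synthases GSY1 (0.16, adjusted p = 0.494) and GSY2 (0.34, adjusted p = 0.0847) were not called. Of 10 trehalose genes only PGM2, the phosphoglucomutase that also serves glycogen, was called (0.57, adjusted p = 0.00938), against 4.13% of all genes called higher. PGM2 also stands in the Msn2/4 list. With no replicate block 3 of the 12 glycogen genes were called, and 2 (without replicate 2 of either strain) or 3 were when 1 YPD library was left out.

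Of 18 genes of hexose transport and sensing, 5 (27.8%) were lower and 1 (5.56%) higher (median -0.12). Of all genes, 2.38% were called lower and 4.13% higher, so the single higher call lay near that share. HXT1 (22.3 and 29 CPM in CRN/PPN2, 39.3 and 40.6 CPM in CRN), HXT3 (665 and 765 CPM in CRN/PPN2, 1002 and 1091 CPM in CRN) and HXT4 (320 and 313 CPM in CRN/PPN2, 477 and 492 CPM in CRN), transporter genes that glucose induces, fell by 0.65, 0.55 and 0.62 on the log2 scale (adjusted p from 0.00218 to 0.0185). HXK2, the main hexokinase gene, had 821 and 878 CPM in CRN/PPN2 and 1196 and 1220 CPM in CRN (-0.51, adjusted p = 0.0264), and the glucose repressor MIG2 had 10.8 and 11.6 CPM in CRN/PPN2 and 19.1 and 27.4 CPM in CRN (-1.04, adjusted p = 0.00206). HXT6, a high-affinity transporter, had 223 and 177 CPM in CRN/PPN2 and 149 and 130 CPM in CRN (0.52, adjusted p = 0.022), and its near-identical neighbour HXT7, with which it can exchange reads, was not called (0.37, adjusted p = 0.0911). In the fit of the 4 YPD libraries alone 6 were lower and 3 higher, against 6.85% and 6.7% of all genes. Of the 5 lower genes 2 were called with no replicate block and 0 to 2 when 1 YPD library was left out (0 without replicate 2 of either strain). Of 17 genes of gluconeogenesis and related pathways 5 (29.4%) were higher and 0 lower, against 4.13% of all genes called higher. The 5 included the regulators CAT8 (1.18, adjusted p = 0.00172) and ADR1 (0.51, adjusted p = 0.0447). The others were the aldehyde dehydrogenase ALD4 (0.80, adjusted p = 0.000619), the carnitine acetyltransferase CAT2 (0.83, adjusted p = 0.0195) and the lactate permease JEN1 (0.72, adjusted p = 0.043). The enzymes PCK1 (0.01), ICL1 (0.13) and MLS1 (0.28) of the same list were not called, with adjusted p from 0.68 to 0.994. In the pentose phosphate pathway 4 of 11 genes (36.4%) were higher and 0 lower, against 4.13% of all genes called higher. With the 4 YPD libraries alone 4 were higher and 2 lower, against 6.7% and 6.85% of all genes. The 4 higher ones with 8 libraries were the minor paralogs SOL4 (1.44), NQM1 (1.57), TKL2 (1.66) and GND2 (0.84). Of these, SOL4, NQM1 and GND2 also stand in the Msn2/4 list. The major enzymes ZWF1 (0.23), GND1 (-0.01), TAL1 (0.06) and TKL1 (-0.38) were not called (adjusted p from 0.0903 to 0.972).

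Proteasome genes were higher nearly throughout. Of the 33 subunit genes tested, 29 (87.9%) were higher and 0 lower, against 4.13% of all genes called higher (6.7% with the 4 YPD libraries alone). The median log2 fold change of the subunit genes was 0.55, with a range from 0.27 to 0.88. The change was therefore small per gene and shared by the group. Of the core particle, PRE3, a catalytic subunit, had 306 and 281 CPM in CRN/PPN2 and 173 and 147 CPM in CRN (0.88, SE 0.12, adjusted p = 0.000144), and PRE8 had 307 and 246 CPM in CRN/PPN2 and 153 and 154 CPM in CRN (0.84, adjusted p = 0.00049). PRE4 (0.72) and SCL1 (0.69) followed. Of the regulatory particle, the ATPase gene RPT1 had 494 and 467 CPM in CRN/PPN2 and 284 and 273 CPM in CRN (0.78, SE 0.12, adjusted p = 0.000319), and RPN11, the deubiquitinase gene, had 258 and 206 CPM in CRN/PPN2 and 147 and 133 CPM in CRN (0.73, adjusted p = 0.0011). Subunits of the core, the base and the lid were thus all represented. Those not called were PRE7 (0.39, adjusted p = 0.0614), RPN1 (0.36, adjusted p = 0.124), RPN10 (0.39, adjusted p = 0.124) and RPN13 (0.27, adjusted p = 0.26). With the 4 YPD libraries alone 32 were called, without the replicate block 12, and without CRN/PPN2 replicate 1, CRN/PPN2 replicate 2, CRN replicate 1 or CRN replicate 2 it was 4, 12, 6 and 9.

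Genes that act with the proteasome were higher in part, 10 of 27 (37%) with 0 lower (median 0.35). Of all genes, 4.13% were called higher (6.7% with the 4 YPD libraries alone). ECM29, which tethers the core to the regulatory particle, had 208 and 194 CPM in CRN/PPN2 and 103 and 92.9 CPM in CRN (1.04, SE 0.11, adjusted p = 1.12e-05). The segregase gene CDC48 had 1097 and 1034 CPM in CRN/PPN2 and 702 and 703 CPM in CRN (0.60, adjusted p = 0.00897), and its cofactors UFD1 (0.75) and NPL4 (0.51) were higher too. The maturation factor UMP1 (0.72), the shuttle factors DDI1 (0.72) and DSK2 (0.50), TMC1 (0.81), the ubiquitin-conjugating enzyme UBC5 (0.61) and the transcription factor YAP1 (0.61) completed the 10. RPN4, the activator of proteasome genes, had 64.2 and 79.3 CPM in CRN/PPN2 and 80.7 and 72.6 CPM in CRN (-0.10, SE 0.14, adjusted p = 0.748). The strains overlapped in RPN4, and protein levels were not measured by these libraries. The polyubiquitin gene UBI4 was not called (0.32, adjusted p = 0.145). With the 4 YPD libraries alone 16 of the 27 were called, with no replicate block 6, and with 1 YPD library left out 3 (without replicate 2 of either strain) or 4. The proteasome-associated control element GGTGGCAAA, to which Rpn4 binds, was present on either strand in 27 of the 33 subunit windows (81.8%), in 17.1% of those of genes called higher, in none of the 129 of genes called lower and in 1.31% of all windows. The 27 subunit genes with it had a median log2 fold change of 0.56 (25 called higher) and the 6 without it of 0.52 (4 called higher). PRE3 (chrX:434913-435212, plus strand) and RPT1 (chrXI:173963-174262, plus strand) have 1 match each, in capitals, which in RPT1 is read on the other strand.
PRE3: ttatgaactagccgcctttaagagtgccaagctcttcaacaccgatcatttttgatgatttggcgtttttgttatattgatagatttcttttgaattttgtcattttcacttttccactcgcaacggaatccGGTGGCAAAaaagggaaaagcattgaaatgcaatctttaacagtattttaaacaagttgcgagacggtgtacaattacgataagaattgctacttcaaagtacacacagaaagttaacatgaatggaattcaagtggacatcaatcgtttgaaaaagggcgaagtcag
RPT1: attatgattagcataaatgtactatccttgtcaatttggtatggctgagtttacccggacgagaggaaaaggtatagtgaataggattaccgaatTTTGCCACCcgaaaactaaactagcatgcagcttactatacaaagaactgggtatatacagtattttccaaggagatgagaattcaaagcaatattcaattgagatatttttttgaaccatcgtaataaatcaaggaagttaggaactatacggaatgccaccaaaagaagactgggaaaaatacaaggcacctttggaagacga

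**Figure D4:**
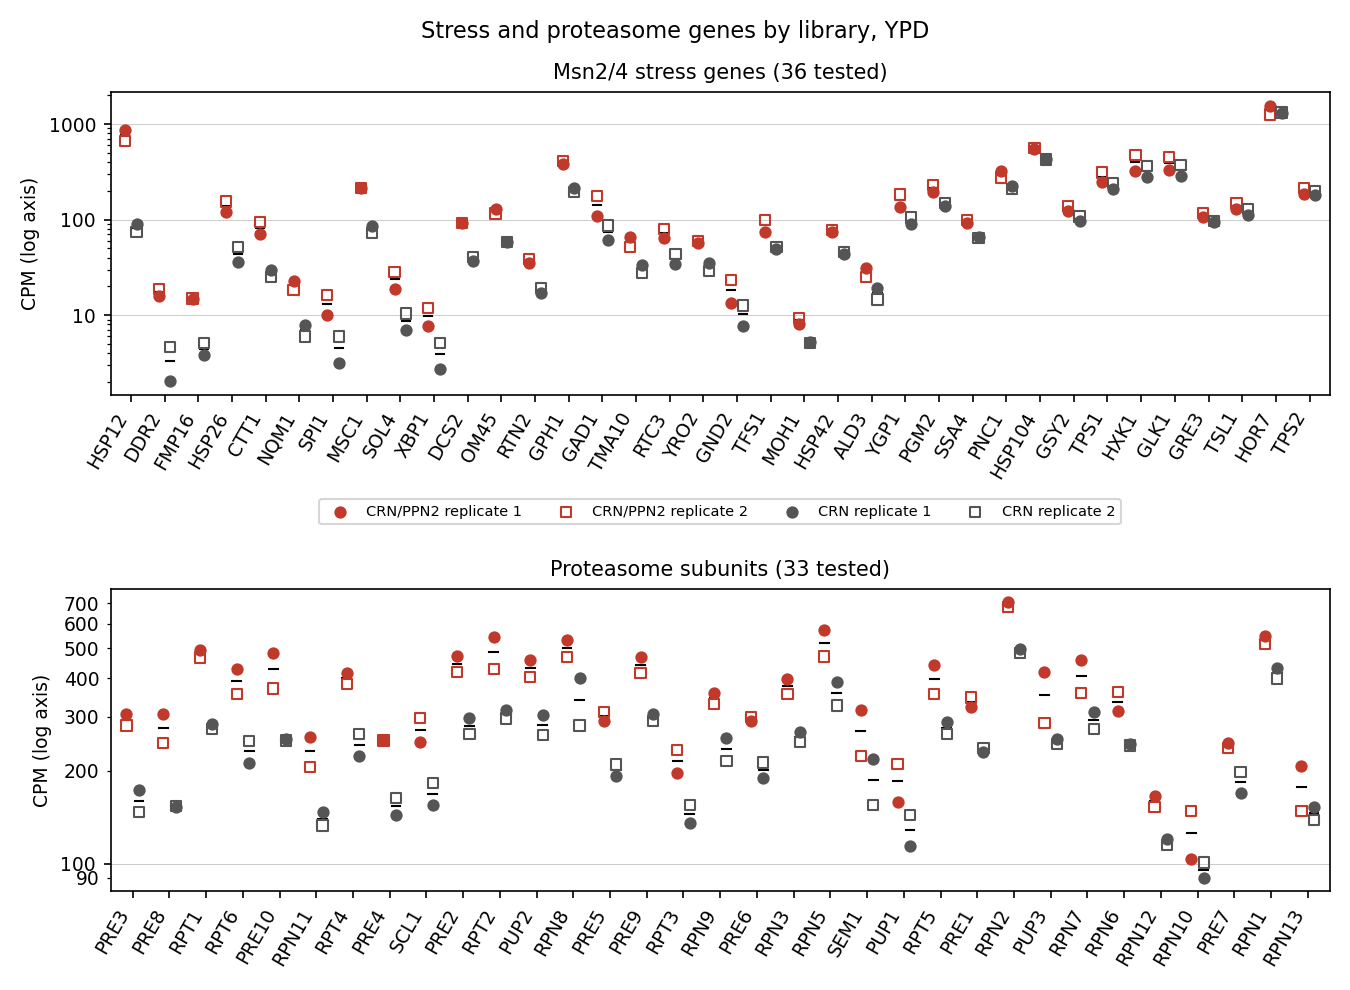
CPM (log axis) of the 36 Msn2/4 stress genes and the 33 proteasome subunit genes in each YPD library, ordered by log2 fold change, with CRN/PPN2 in red on the left and CRN in gray on the right of each gene, circles for replicate 1, squares for replicate 2 and a bar at the mean. HSP12 lies at 874 and 663 CPM in CRN/PPN2, above 89.3 and 73.5 CPM in CRN, and 29 of the 33 subunit genes were called higher, by 0.88 on the log2 scale at most.

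Of 28 cytosolic chaperone genes, 4 (14.3%) were higher and 0 lower, against 4.13% of all genes called higher, and 10 were higher and 1 lower with the 4 YPD libraries alone (6.7% of all genes higher). The 4 were HSP26, HSP42 (0.77, adjusted p = 0.000917), SSA1 (0.56, adjusted p = 0.00865) and SSA4 (0.56, adjusted p = 0.0144), of which HSP26, HSP42 and SSA4 also stand in the Msn2/4 list. Genes of folding in the endoplasmic reticulum and of the unfolded protein response gave 0 calls of 20 by edgeR, with a median log2 fold change of -0.16 (4 had an unadjusted p under 0.05, and DESeq2 called 1), and 2 were lower with the 4 YPD libraries alone. The heat shock element GAANNTTC stood in 8.8% of the windows of genes called higher and in 12.1% of all windows. Of 23 antioxidant genes, 4 (17.4%) were higher and 1 (4.35%) lower, against 4.13% and 2.38% of all genes. The higher ones were CTT1 (also in the Msn2/4 list), the peroxiredoxins TSA2 (0.89, adjusted p = 0.0258) and PRX1 (0.53, adjusted p = 0.0117) and the glutathione peroxidase GPX1 (0.80, adjusted p = 0.0228). GPX2, a glutathione peroxidase gene that Yap1 regulates, went the other way, with 34.3 and 31.8 CPM in CRN/PPN2 and 94.1 and 72.9 CPM in CRN (-1.33, SE 0.13, adjusted p = 3.97e-06).

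Cytosolic ribosomal protein genes lay slightly lower in CRN/PPN2. Of 137 tested, 9 were lower and 0 higher, which is 6.57% of them against 2.38% of all genes called lower, and the median log2 fold change was -0.31. With the 4 YPD libraries alone 84 were lower (6.85% of all genes were), and without the replicate block 1 was. RPS28B had 113 and 95 CPM in CRN/PPN2 and 188 and 177 CPM in CRN (-0.81, SE 0.12, adjusted p = 0.000282). RPL33B had 516 and 532 CPM in CRN/PPN2 and 823 and 718 CPM in CRN (-0.55, adjusted p = 0.0174), and the other 7, from RPL6A (-0.53, adjusted p = 0.0234) to RPS0B (-0.48, adjusted p = 0.0486), were closer to the threshold. Many of these genes are close paralogs that share reads, and 135 of the 137 log2 fold changes were below 0. Mitochondrial ribosomal protein genes had a median of 0.16, with 65 of 72 above 0 and 1 called, MRPL1 (0.44, adjusted p = 0.0383), and genes of the respiratory chain and ATP synthase a median of 0.17, with 35 of 41 above 0 and 1 called, the hypoxic cytochrome c gene CYC7 (0.73, adjusted p = 0.00174). The single calls were 1.39% and 2.44% of these lists, below the 4.13% of all genes called higher. With the 4 YPD libraries alone 4 of the 72 and 6 of the 41 were called higher, against 6.7% of all genes.

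Amino acid synthesis outside the methionine branch gave smaller falls. In the lysine pathway 4 of 11 genes (36.4%) were lower, against 2.38% of all genes called lower. They were the homocitrate synthases LYS20 (-0.41) and LYS21 (-0.43), which are close paralogs, LYS4 (-0.40) and LYS1 (-0.42). Their adjusted p ran from 0.0297 to 0.0461. With the 4 YPD libraries alone 8 were called, and without the replicate block 0. HIS7 (-0.54, adjusted p = 0.00712) of 7 histidine genes, ILV5 (-0.47, adjusted p = 0.0339) of 13 branched-chain genes and ARO10 (-0.50, adjusted p = 0.0234) of 15 aromatic genes were the single calls of their lists. They made up 14.3%, 7.69% and 6.67% of these lists, against 2.38% of all genes called lower. With the 4 YPD libraries alone 2, 5 and 6 genes were called lower, against 6.85% of all genes. The proline genes rose. PUT1, the proline oxidase gene, had 152 and 161 CPM in CRN/PPN2 and 83.2 and 78.4 CPM in CRN (0.95, SE 0.12, adjusted p = 7.72e-05). PUT2, the gene of the next enzyme, rose by 0.45 on the log2 scale (adjusted p = 0.034), and PUT4, the proline permease gene, by 0.52 (adjusted p = 0.0109). GDH2, the catabolic glutamate dehydrogenase gene, fell by 0.63 on the log2 scale (adjusted p = 0.00827), and 24 other genes under nitrogen catabolite repression were not called. Of the 28 genes of this list, 3 (10.7%) were higher and 1 (3.57%) lower, against 4.13% and 2.38% of all genes. With the 4 YPD libraries alone 3 were higher and 3 lower, against 6.7% and 6.85% of all genes. In pyrimidine synthesis URA1, the dihydroorotate dehydrogenase gene, had 105 and 93 CPM in CRN/PPN2 and 220 and 204 CPM in CRN (-1.10, SE 0.15, adjusted p = 0.000141). Of 14 genes of that pathway it was the 1 called lower (7.14%, against 2.38% of all genes). With the 4 YPD libraries alone 4 were lower, against 6.85% of all genes. The plasmid marker URA3 moved with strain in the opposite direction. The part of the marker in the change of URA1 was not tested.

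Several of the largest changes belonged to none of these groups. ISF1, a paralog of the mitochondrial function gene MBR1, had 32.9 and 29.6 CPM in CRN/PPN2 and 7.73 and 6.62 CPM in CRN (2.12, SE 0.20, adjusted p = 2.03e-06). EGO4 had 165 and 121 CPM in CRN/PPN2 and 56.8 and 39.3 CPM in CRN (1.58, adjusted p = 1.75e-06), and UIP4, a protein of the nuclear envelope, had 30.6 and 32.4 CPM in CRN/PPN2 and 10.9 and 10.8 CPM in CRN (1.53, adjusted p = 6.31e-05). MAG1, the 3-methyladenine DNA glycosylase gene, had 67.4 and 58.5 CPM in CRN/PPN2 and 25.9 and 25.8 CPM in CRN (1.28, adjusted p = 2.66e-05). MAG1 is transcribed away from its neighbour DDI1, which also rose. On the lower side, SRD1 had 4.9 and 7.26 CPM in CRN/PPN2 and 37.1 and 42.4 CPM in CRN (-2.70, SE 0.24, adjusted p = 1.03e-06). The flocculin gene FLO11 had 2.66 and 4.91 CPM in CRN/PPN2 and 11.6 and 13.5 CPM in CRN (-1.72, adjusted p = 0.000582), and TIR1, a cell wall mannoprotein gene induced by cold and low oxygen, had 0.817 and 1.37 CPM in CRN/PPN2 and 5.46 and 8.61 CPM in CRN (-2.64, adjusted p = 0.000209). Both rest on few counts, and TIR1 passed the filter on low counts only through KOH libraries. The zinc transporter gene ZRT1 rose, with 237 and 248 CPM in CRN/PPN2 and 139 and 156 CPM in CRN (0.72, adjusted p = 0.0014). It was the 1 call among 14 genes of the zinc regulon (7.14%), against 4.13% of all genes called higher. With the 4 YPD libraries alone 1 was higher and 2 lower, against 6.7% and 6.85% of all genes.

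Some non-coding RNAs were called as well, although the libraries were selected for poly(A), which these RNAs mostly lack. LSR1, the U2 spliceosomal RNA, had 47 and 44.3 CPM in CRN/PPN2 and 13.2 and 12.8 CPM in CRN (1.81, SE 0.17, adjusted p = 1.75e-06). snR19, the U1 RNA, had 43.1 and 44.1 CPM in CRN/PPN2 and 15.2 and 11.5 CPM in CRN (1.72, adjusted p = 4.49e-05). They were the only small nuclear RNAs that passed the filter. Of 42 small nucleolar RNAs tested 4 were higher and 0 lower, with a median log2 fold change of 0.27, against 4.13% of all genes called higher. SCR1, the RNA of the signal recognition particle, had 111 and 70 CPM in CRN/PPN2 and 44.3 and 49 CPM in CRN (0.94, adjusted p = 0.00432), while the other 7 RNAs of its class tested were not called. The share of counts in protein-coding genes was 99.8% and 99.83% in CRN/PPN2 and 99.82% and 99.85% in CRN. The part of RNA selection in the changes of these or of other genes was not tested. Transcripts were counted in whole cultures, so a change in RNA per cell and a change in the share of cells that make it cannot be told apart.

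Among groups tied to pH and ion balance, 1 of 7 genes of the plasma membrane proton pump and its regulators was called, against 6.5% of all genes, and 2 were higher and 3 lower with the 4 YPD libraries alone. HSP30, a stress-induced membrane protein that dampens the pump, had 18.2 and 14.1 CPM in CRN/PPN2 and 4.77 and 3.97 CPM in CRN (1.88, SE 0.28, adjusted p = 0.000319). PMA1, the pump gene, had 3038 and 3659 CPM in CRN/PPN2 and 3877 and 4183 CPM in CRN and was not called (-0.27, adjusted p = 0.286), and its minor paralog PMA2 had 5.52 and 13.3 CPM in CRN/PPN2 and 3.41 and 5.74 CPM in CRN (1.03, adjusted p = 0.0647). None of 18 V-ATPase genes was called (median -0.08), VPH1 of the vacuolar form having a log2 fold change of -0.23 (adjusted p = 0.373). None of 12 cation transport genes, 14 genes of calcium and calcineurin signalling, 8 copper genes and 29 ergosterol genes was called. In edgeR's test without adjustment, p was under 0.05 for 0 of the V-ATPase, 2 of the cation transport, 3 of the calcium, 0 of the copper and 3 of the ergosterol genes, and DESeq2 called 0 of all 5 lists. Of these lists, 2 calcium genes were higher and 1 ergosterol gene was lower with the 4 YPD libraries alone, and 0 genes of the other 3 were called. RIM21 and RIM101 of alkaline sensing had log2 fold changes of 0.01 and -0.07 (adjusted p = 0.98 and 0.813). Among the genes with a cysteine-rich transmembrane module, CPP1 (0.09), CPP2 (-0.31), CPP3 (0.75), MNC1 (-0.09) and YDL012C (0.03) were not called (adjusted p from 0.255 to 0.949), with 0 of these 5 at an unadjusted p under 0.05 in edgeR and 0 called by DESeq2. The study picked 5 genes for knockout tests partly because it found them raised in CRN/PPN2 over CRN in YPD. In this comparison none of the 5, which include CPP3, was called, and 4 had log2 fold changes above 0 and 1 below 0. ECM8 had 3.27 and 3.14 CPM in CRN/PPN2 and 0.682 and 2.65 CPM in CRN (0.92, adjusted p = 0.308). YOL160W did not exceed 1.23 CPM, ADH2 did not exceed 2.86 CPM, and YCR099C had 18.6 and 14.3 CPM in CRN/PPN2 and 21.4 and 18.3 CPM in CRN (-0.27, adjusted p = 0.461). YOL160W and ADH2 were below 10 CPM in all 4 YPD libraries, as were ECM8 and CPP3, and passed the filter only through KOH libraries.

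**Figure D5:**
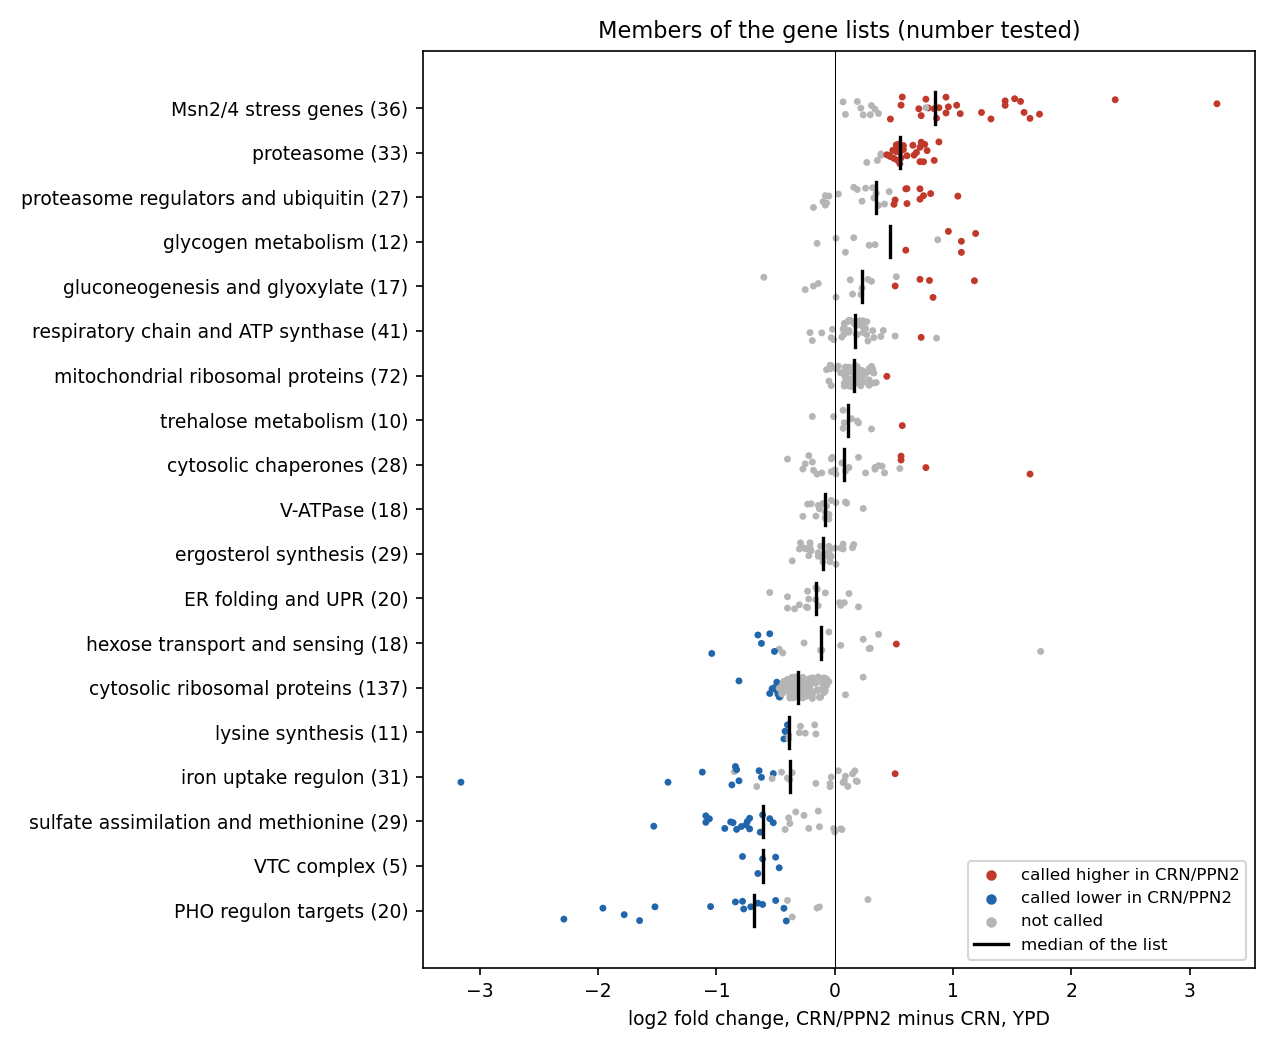
Log2 fold changes (CRN/PPN2 minus CRN, x axis) of the tested members of 19 gene lists (rows, with the number tested), red for genes called higher, blue for genes called lower and gray for genes not called, with a black bar at the median of each list. The Msn2/4 stress genes have a median of 0.85 and the proteasome subunits of 0.55, whereas the PHO targets have one of -0.68 and the sulfate and methionine genes one of -0.61.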

How the data were processed

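Per the labels, poly(A) RNA of 2 libraries per group was sequenced. The authors mapped reads to R64 with STAR 2.7.6a and deposited whole-number counts per gene (7127 genes) without normalization or batch correction, which were used as deposited. STAR counts uniquely mapped reads, so near-identical genes share an uncertain part. The strand setting is not given in the sources used here. Of 1967 genes without a symbol in the table, 189 were named from RefSeq.

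A gene was tested if 2 or more of the 8 libraries reached 10 CPM (5430 genes), with the quasi-likelihood test of edgeR 4.0.16 (R 4.3.3), TMM factors, 4 groups, replicate number as a block and Benjamini-Hochberg adjustment (threshold 0.05). The filter over 8 libraries, TMM and edgeR's generalized linear model follow the study, which corrected the batches with ComBat-seq. The block takes its place here. SE was approximated from the fold change and its F statistic. The pairing by number comes from the stated batches, and replicate differences correlated across genes between groups with r from 0.0926 to 0.467 (0.467 for the YPD groups). Replicates differed by more than counting noise (chi-square per degree of freedom 6.42 to 16.8). The scripts were tested on simulated counts.

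The members and the 59 lists were chosen with earlier results of these data known. Lists are described by counts and medians, with no test of the list. Where libraries of the strains are said not to overlap, the genes are called ones. The share of all tested genes without overlap is not given, so such remarks only describe the values. Named genes are the strain markers, the 15 largest rises and 15 largest falls among called genes that averaged 20 CPM or more in one strain and had the same direction in both replicate pairs, genes the study names, members of described lists with the smallest adjusted p, all members of the phosphate lists, and called members of lists with 5 or fewer calls. Uncalled members of other lists were named for their roles after their values were seen, and the printed promoters were likewise chosen. Promoters were read from the RefSeq R64 genome (5329 windows) and motifs searched on both strands. Alternatives were no replicate block, the 4 YPD libraries alone, no CRN/PPN2 KOH libraries, upper quartile or RLE factors, filterByExpr or no filter, DESeq2 1.42.0, ComBat-seq (sva 3.50.0) and leaving out each library.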

Additional observations from a re-analysis of the deposited data

How the results depend on the processing

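No direction of the 198 called genes of the lists and of the largest changes reversed under any alternative, and 57 of the 198 stayed called under all of them, so the alternatives moved the counts of calls. Every alternative uses the same libraries or a part of them, so the kept directions are not separate evidence. The total of 353 calls became 132 without the replicate block (88 higher, 44 lower), 736 with the 4 YPD libraries alone (364 and 372), 812 without both CRN/PPN2 KOH libraries (397 and 415), and 556 with ComBat-seq counts fitted without the block (238 lower). DESeq2 gave 140 higher genes. Leaving out 1 library gave 98 to 815 calls in all, 64 to 397 higher and 34 to 422 lower. The high ends came from leaving out either CRN/PPN2 KOH library, whose group has the widest spread between replicates (SD 0.308 on the log2 scale, with 1559324 and 796548 counts), and the low ends from leaving out CRN/PPN2 YPD replicate 1, which leaves 1 library in that group, assumed to vary like the others. The share of calls on the higher side was 63.5% with 8 libraries and 49.5% with the 4 YPD libraries alone. RLE factors, upper quartile factors, no filter and filterByExpr kept all 3 counts within 1.5 times, and no scaling moved the median of all genes by more than 0.01. The replicate block is paired by stated batches. Without it, 94 of the 198 genes stayed called. Without a filter on low counts 413 genes were called. A single count is worth 0.2 to 0.225 CPM in the YPD libraries, and whether depth limits the calls at a few CPM was not tested.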

Other observations

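Among the called genes in none of the lists were several of mitochondrial import and quality control. They were picked after their values were seen and because they were called, and how many other genes of this kind did not pass the test was not counted. MIA40, the import receptor of the intermembrane space, rose by 0.67 on the log2 scale in CRN/PPN2 vs. CRN, and the genes COX23 (0.68), MIX17 (0.45) and MIX14 (0.57), whose products it imports, were also higher. The rhomboid protease PCP1 (0.69), the Lon protease PIM1 (0.53), the AAA protease subunit YTA12 (0.54) and the prohibitin PHB2 (0.45) rose as well, as did the MICOS genes MIC26 (0.50) and MIC27 (0.45). The pyruvate carrier gene MPC3, used in respiratory growth, rose by 1.67. Adjusted p among these genes ran from 0.0016 (MIA40) to 0.044 (MIX14). Of the ubiquitin system outside the list, UBA1 (0.53), the activating enzyme, and UBP6 (0.55), a deubiquitinase of the proteasome, were higher.

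On the lower side outside the lists, the serine synthesis genes SER33 (-0.70), SER3 (-0.53) and SER2 (-0.47) and the aminotransferase genes AAT1 (-0.73) and ALT1 (-0.55) were called, likewise chosen after their values were seen. DLD3, a cytosolic dehydrogenase, fell by 0.82 on the log2 scale, and HO, the mating-type endonuclease gene, by 0.95. Of 15 transposable element rows tested, 3 were lower and 0 higher, with a median log2 fold change of -0.35, against 2.38% of all genes called lower. Of 49 dubious open reading frames tested, 1 was called, against 6.5% of all genes. In all, 161 of the 353 called genes were in none of the 59 lists.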
